A study of Homo sapiens with 18 samples.

Results

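DNA replication and S phase genes are described here as a module of 40 protein-coding genes, listed by name for their known part in copying the genome. No measured value enters the rule, although the list was drawn up with earlier results of these data known. All 40 symbols matched 1 Ensembl gene each, among the 60675 genes listed for every library. The module holds 16 genes of origin licensing and firing, 12 genes of the sliding clamp, its loader, the polymerases and lagging strand synthesis, 4 genes of nucleotide supply, 5 genes of cyclin E and the E2F factors, and 3 genes of chromatin assembly and maintenance methylation.

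Replication is prepared in G1, when the origin recognition complex, CDC6 and CDT1 load the ring-shaped MCM helicase onto DNA. It starts when CDC45 and the GINS complex join the helicase in S phase. PCNA then holds the polymerases on the template, RFC opens and closes the PCNA ring, and FEN1 and LIG1 join the fragments of the lagging strand. Many of these genes are targets of E2F transcription factors, which are restrained by RB until cyclin and CDK activity releases them, and androgen is known to drive or to slow the cycle of prostate cancer cells depending on its dose.

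The study asked how the histone demethylases KDM1A and KDM7A bear on androgen-regulated transcription in prostate cancer. RNA Seq counts were analysed for 18 libraries, 3 in each of 6 groups. The cells were LNCaP, an androgen-dependent prostate cancer line, and C4-2, an androgen-independent line derived from it. In each line the groups were scrambled siRNA (siScr) with vehicle, siScr with the synthetic androgen R1881 (1 nm, 72 h), and siRNA pools against KDM1A and KDM7A together (dual knockdown) with R1881 (1 nm, 72 h). All groups were transfected (10 nm siRNA) and grown in phenol red-free medium with hormone-depleted serum (charcoal-stripped per the labels, dialysed per the culture methods). Vehicle is given as DMSO in the RNA Seq methods and as ethanol in the culture methods. Each line is a single established line, no library had KDM1A or KDM7A depleted alone, and knockdown libraries with vehicle were not analysed here. The 3 C4-2 vehicle libraries carry C4-2 in their titles and LNCaP in the cell line field, and were grouped by title.

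Total counts per library ranged from 10485096 to 20154243, apart from C4-2 siScr vehicle replicate 3 with 3182604. Over the 4440 genes that differed at least 2-fold between the lines with R1881, the C4-2 vehicle libraries lay nearer to C4-2 than to LNCaP for 79.5 to 84.7% of genes, and the LNCaP vehicle libraries for 18.3 to 20.8%. All 10 luminal prostate markers were above 1 CPM (counts scaled by library size with TMM factors) in every library, with KLK3, the gene of prostate-specific antigen, between 18.6 and 5750 CPM. Of 12 markers of stromal, immune and endothelial cells, 2 to 4 reached 1 CPM in a library and their summed level was 23.5 to 50.8 CPM, with COL1A2, LUM, DCN, CD3E and PECAM1 at 0 to 3 counts. The highest were COL1A1 (6.96 to 36.3 CPM) and VWF (4.95 to 20.8 CPM), which have 94 and 17 counts in the shallow library. PTPRC, a leukocyte gene, had 62, 41 and 6 counts in the C4-2 vehicle libraries and 0 to 3 in every other library. COL1A1 was at 34.3, 35.9 and 27.4 CPM in C4-2 vehicle and at 16.9, 24.2 and 20.01 CPM in C4-2 siScr R1881, and PDGFRB at 3.16, 3.38 and 3.20 CPM and at 1.43, 1.52 and 0.918 CPM. PTPRC, COL1A1 and PDGFRB were thus higher in C4-2 vehicle than in C4-2 siScr R1881, with no overlap. In C4-2 dual knockdown COL1A1 (36.3, 29.3 and 26.4 CPM) and PDGFRB (1.93, 1.76 and 2.43 CPM) also lay above C4-2 siScr R1881. The part of these markers in the C4-2 results was not tested. In bulk RNA, a smaller share of cells in S phase and less RNA of these genes per cell cannot be told apart.

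The depleted genes were measured first. KDM1A stood at 104, 108 and 113 CPM in LNCaP siScr R1881 and at 48.5, 52.2 and 54.1 CPM in LNCaP dual knockdown. In C4-2 it stood at 146, 140 and 141 CPM with siScr and at 14.8, 19.9 and 14.6 CPM with dual knockdown. The remaining mean level was thus 47.7% of siScr in LNCaP and 11.6% in C4-2. KDM7A remained at 51.7% in LNCaP (55.0, 65.0 and 59.2 CPM against 27.7, 31.4 and 33.5 CPM) and at 17.6% in C4-2 (112, 118 and 132 CPM against 18.2, 23.9 and 21.6 CPM). Depletion was deeper in C4-2 for both genes (difference between lines in log2FC −2.04 ± 0.12 SE, adjusted p = 2.4e-09 for KDM1A, and −1.56 ± 0.14 SE, adjusted p = 6.1e-07 for KDM7A, edgeR), so line and depth of knockdown cannot be told apart in any comparison of the knockdown between lines.

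Per exonic length, the levels of the 40 genes spanned PCNA at 104 FPKM (counts scaled by exonic length and library size, mean of 18 libraries) to E2F2 at 2.07 FPKM. After PCNA, the highest mean levels were those of MCM7, a subunit of the MCM helicase, with 53.8 FPKM and of TK1, the thymidine kinase of the salvage pathway, with 52.8 FPKM. These last 2 genes ranged over the libraries from 35.9 to 79.7 FPKM and from 25.6 to 114 FPKM, so their ranges overlapped. The lowest besides E2F2 were GINS3 with 2.37 FPKM and E2F8, a repressor of the E2F family, with 2.95 FPKM. The fewest counts of any member in any library were 36, for GINS3 in the shallow C4-2 vehicle library, and all 40 genes passed the filter on low counts in every fit.

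**Figure D1:**
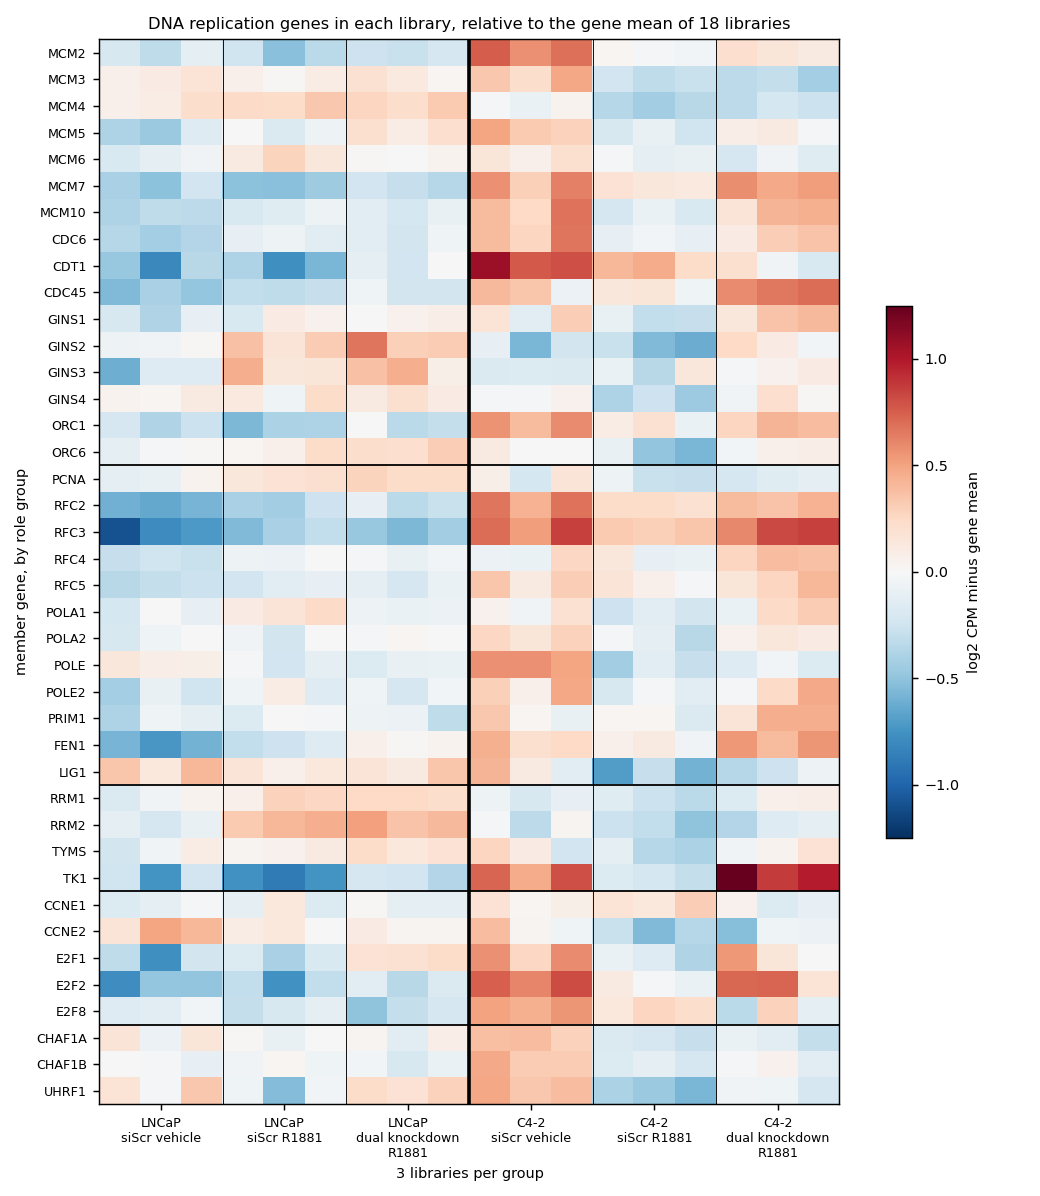
Heat map of the 40 genes (rows, by role group) in the 18 libraries (columns, 3 per group), as log2 CPM minus the mean of the gene over all libraries, in red above and blue below that mean. The C4-2 siScr vehicle columns are redder than the LNCaP vehicle columns in most rows, and the C4-2 siScr R1881 columns beside them are paler or blue.

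Promoter sequence was examined as a description. The genes were chosen by known role and many are known E2F targets, so their share of E2F letters is not independent of that choice. RefSeq promoter windows on GRCh38.p14 (250 bases before to 50 bases after the start of the gene) were found for 35 of the 40 genes, the exceptions being MCM4, MCM5, GINS4, CCNE2 and E2F8. The E2F site spelled TTTCCCGC, TTTCGCGC, TTTGCCGC or TTTGGCGC was present on either strand in 20 of the 35 windows (57.1%) and in 3.31% of all 35116 promoter windows. CCAAT on either strand, the box bound by NF-Y, was present in 57.1% of member windows and in 34.6% of all windows. The letters TTTGAA or TTCGAA, which spell the CHR element of mitotic genes, were present in 2 member windows (5.71%) and in 16.4% of all windows. The shares over all windows were not matched for GC content or type of gene. They count every window of a gene, whereas only the first window of a member was taken. A match is a description of letters, and none of these windows was tested for binding.

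The 170 bases from 150 before to 20 after the start are printed for 7 genes on which the results below turn, 5′ to 3′ on the strand of the gene, with the E2F letters of either strand in capitals. E2F1 holds 2 such sites, CDC6, CDT1, UHRF1, RFC3 and POLA1 hold 1 each, and TK1, the gene with the largest change in C4-2 in either treatment, holds none in its window.
E2F1 (chr20:33686366-33686535, minus strand): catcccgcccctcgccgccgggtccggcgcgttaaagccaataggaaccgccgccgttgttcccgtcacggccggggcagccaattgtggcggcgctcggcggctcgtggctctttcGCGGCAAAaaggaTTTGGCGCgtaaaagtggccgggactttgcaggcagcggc
CDC6 (chr17:40287729-40287898, plus strand): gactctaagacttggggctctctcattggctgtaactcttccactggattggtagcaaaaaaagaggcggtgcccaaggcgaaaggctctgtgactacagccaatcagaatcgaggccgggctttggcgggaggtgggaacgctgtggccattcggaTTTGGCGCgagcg
CDT1 (chr16:88803639-88803808, plus strand): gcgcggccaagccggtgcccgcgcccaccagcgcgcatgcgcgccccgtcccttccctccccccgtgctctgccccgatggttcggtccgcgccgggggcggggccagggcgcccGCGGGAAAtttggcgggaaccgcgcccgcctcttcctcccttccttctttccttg
UHRF1 (chr19:4909351-4909520, plus strand): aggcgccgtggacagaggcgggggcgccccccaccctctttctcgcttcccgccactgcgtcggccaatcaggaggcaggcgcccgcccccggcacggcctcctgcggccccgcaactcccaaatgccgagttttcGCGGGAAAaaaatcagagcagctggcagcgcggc
RFC3 (chr13:33817999-33818168, plus strand): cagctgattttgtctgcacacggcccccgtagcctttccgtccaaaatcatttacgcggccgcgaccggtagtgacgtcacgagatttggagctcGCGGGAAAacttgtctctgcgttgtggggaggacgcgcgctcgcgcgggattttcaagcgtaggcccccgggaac
POLA1 (chrX:24693768-24693937, plus strand): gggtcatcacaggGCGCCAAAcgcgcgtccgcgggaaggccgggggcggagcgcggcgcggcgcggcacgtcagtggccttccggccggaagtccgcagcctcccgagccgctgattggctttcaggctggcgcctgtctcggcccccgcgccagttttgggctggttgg
TK1 (chr17:78187185-78187354, minus strand): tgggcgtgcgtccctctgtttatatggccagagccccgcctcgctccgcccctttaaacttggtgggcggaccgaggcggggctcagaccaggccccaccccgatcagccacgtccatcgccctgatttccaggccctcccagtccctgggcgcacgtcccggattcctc

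R1881 lowered most of the module in C4-2, and its calls in LNCaP went in both directions. In C4-2 it lowered 27 of the 40 genes and raised none, whereas in LNCaP it raised 14 and lowered 4 (45% called in all). A gene was called with an adjusted p under 0.05 in edgeR's quasi-likelihood test, adjusted over all genes tested in the line. Across all 16965 genes tested in C4-2, 15.7% were called lower and 17.1% higher (32.8% in all), and across all 17162 genes tested in LNCaP, 23.5% were called higher and 23.2% lower (46.6% in all). The median log2FC of the 40 genes was −0.37 in C4-2 (all genes −0.02) and 0.13 in LNCaP (all genes −0.04). At an unadjusted p under 0.05, still 0 of the 40 genes were higher in C4-2 with R1881 and 31 were lower, and DESeq2 called 0 higher and 24 lower. No gene of the 40 passed both the threshold and a log2FC of 1 with R1881 in either line, by edgeR, by DESeq2 or at an unadjusted p under 0.05, whereas 9.07% of all genes did in C4-2 and 12.3% in LNCaP. Leaving out the shallow C4-2 vehicle library gave 26 genes lower and none higher.

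Library by library, the same picture held. All 3 C4-2 R1881 libraries lay below all 3 vehicle libraries for 28 genes and above them for none (22.3% and 24.6% of all genes tested), while 12 genes overlapped. In LNCaP the R1881 libraries lay above the vehicle libraries for 17 genes and below them for 4 (27.2% and 25.8% of all genes tested). The median over the 40 genes of the log2 level relative to the mean of the 18 libraries was 0.14 to 0.35 in C4-2 vehicle libraries and −0.23 to −0.12 in C4-2 R1881 libraries. In LNCaP it was −0.24 to −0.12 with vehicle and −0.088 to −0.070 with R1881.

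The difference between the lines was itself tested, as an interaction in the 18 libraries. The R1881 response was lower in C4-2 than in LNCaP for 24 of the 40 genes and higher for none, against 7.95% lower and 6.05% higher (14% in all) of 18684 genes tested. No difference of the 40 genes reached a log2FC of 1 and the threshold, by edgeR, by DESeq2 or at an unadjusted p under 0.05, and 4.32% of all genes did. DESeq2 called 27 lower and 0 higher, and at an unadjusted p under 0.05 the counts were 34 and 0. The response was more negative in C4-2 for 39 of the 40 genes, with a median difference in log2FC of −0.50. A set of 7 genes was called in opposite directions, higher in LNCaP and lower in C4-2, namely MCM5, MCM6, MCM10, CDC6, RFC2, RFC3 and FEN1, a pattern shown by 0.83% of the 15775 genes tested in both lines. The 4 genes that fell in LNCaP (POLE, TK1, CCNE2 and UHRF1) fell in C4-2 also, which is 10% of the 40 genes and 9.19% of all genes. Another 16 fell in C4-2 and were not called in LNCaP (5.78% of all genes), and 7 rose in LNCaP and were not called in C4-2 (10.8% of all genes). CDC45, RFC5, POLE2, PRIM1, CCNE1 and E2F8 were called in neither line, as were 41.95% of all genes.

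**Figure D2:**
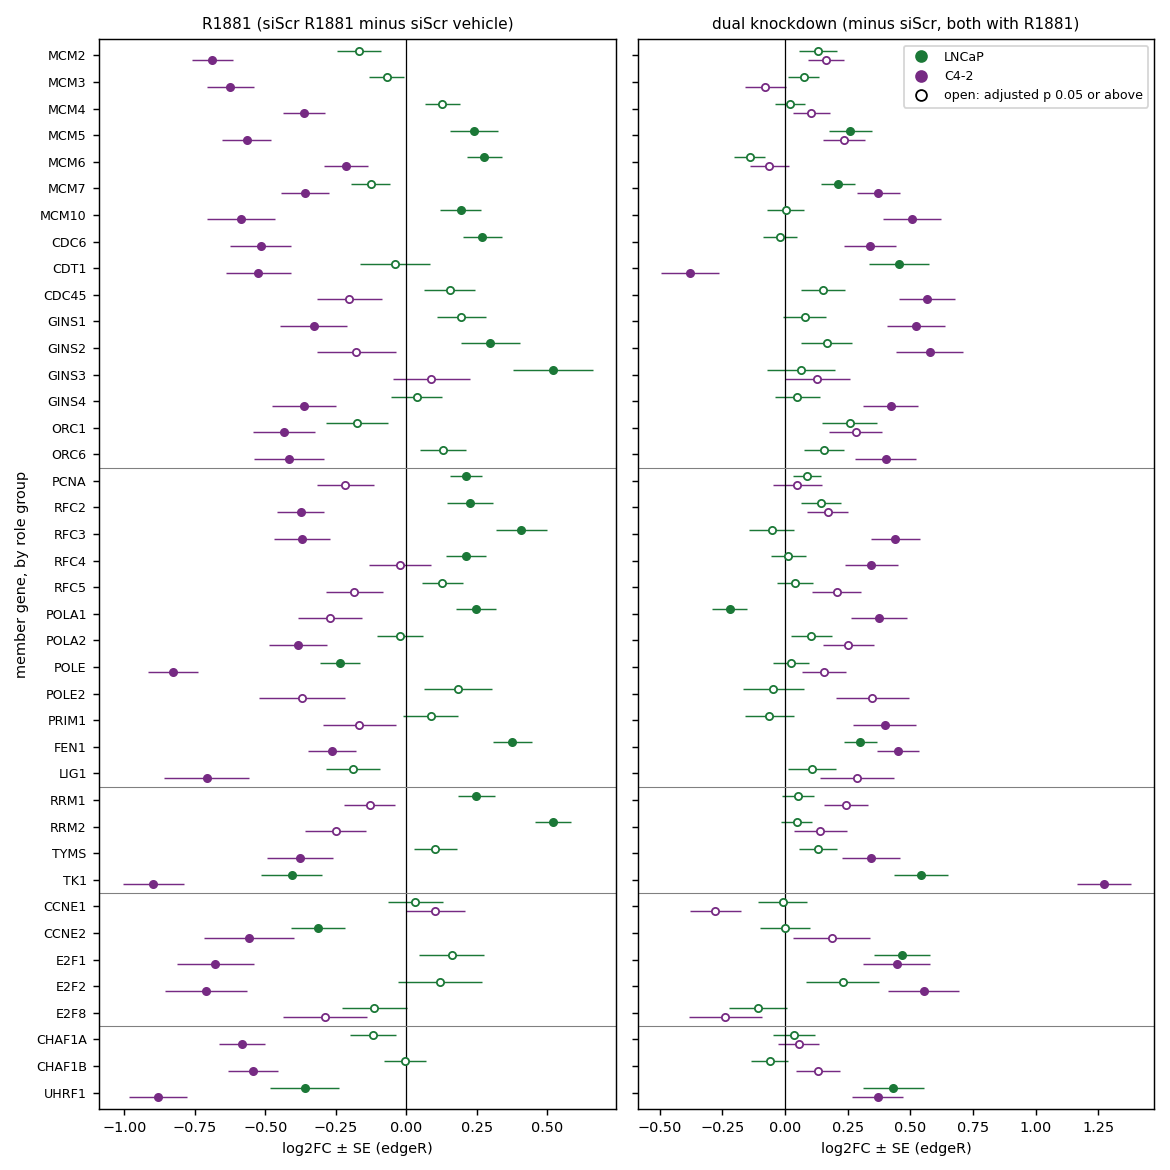
Points give the log2FC of each of the 40 genes with its SE (horizontal lines) for R1881 (left) and for dual knockdown (right), in LNCaP (green) and C4-2 (purple), filled where the adjusted p was under 0.05. On the left the purple points lie to the left of the green ones for 39 genes, and on the right most purple points lie right of 0, with CDT1 the called exception.

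Among the genes of origin licensing and firing, R1881 lowered 13 of 16 in C4-2 and raised 6 of 16 in LNCaP, with no call the other way in either line. MCM2, a helicase subunit, gave the largest change of this group in C4-2. It was at 168, 148 and 160 CPM with vehicle and at 101, 98.2 and 97.0 CPM with R1881 in C4-2, which did not overlap (log2FC −0.69 ± 0.07 SE, adjusted p = 5.2e-06). In LNCaP it was at 86.4, 79.8 and 91.6 CPM with vehicle and at 83.6, 69.2 and 78.5 CPM with R1881, which overlapped (adjusted p = 0.083). The fall in C4-2 thus brought MCM2 to a level still above that of every LNCaP library.

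MCM5, a subunit of the same ring, moved in opposite directions. In C4-2 it went from 67.3, 60.1 and 58.3 CPM to 41.5, 44.8 and 40.1 CPM (log2FC −0.57 ± 0.09 SE, adjusted p = 0.00017). In LNCaP it went from 36.7, 34.6 and 42.7 CPM to 48.1, 42.3 and 45.7 CPM (log2FC 0.24 ± 0.09 SE, adjusted p = 0.030), with 1 vehicle library inside the range with R1881. The LNCaP call for MCM5 was lost in 4 of 9 fits that left out a library. The responses differed by −0.82 ± 0.12 SE in log2FC (adjusted p = 4.9e-05), and with R1881 the difference between lines in MCM5 was not called (log2FC −0.11 ± 0.08 SE, adjusted p = 0.29). MCM6 was at 93.2, 88.2 and 97.0 CPM with vehicle and 83.04, 77.8 and 78.8 CPM with R1881 in C4-2, a small separation at the edge of the threshold (log2FC −0.21 ± 0.08 SE, adjusted p = 0.04999). In LNCaP it was at 73.6, 77.6 and 81.5 CPM with vehicle and 90.8, 102 and 92.6 CPM with R1881 (log2FC 0.28 ± 0.06 SE, adjusted p = 0.0018). The C4-2 call for MCM6 was lost when any of 8 of the 9 libraries was left out, whereas the LNCaP call held in each such fit. The C4-2 call was also lost with RLE factors, with no filter, with DESeq2 and with the replicate block.

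CDC6, which loads the helicase at origins, and MCM10, which helps to start it, shared the opposite pattern. CDC6 in C4-2 stood at 74.1, 68.0 and 89.7 CPM with vehicle and at 52.6, 54.9 and 52.4 CPM with R1881 (log2FC −0.52 ± 0.11 SE, adjusted p = 0.0019). In LNCaP it stood at 43.9, 41.98 and 43.7 CPM with vehicle and at 52.5, 54.0 and 51.5 CPM with R1881 (log2FC 0.27 ± 0.07 SE, adjusted p = 0.0044). Neither line overlapped, and the 6 R1881 libraries of both lines fell together between 51.5 and 54.9 CPM. For MCM10 the C4-2 values were 51.7, 46.5 and 62.9 CPM with vehicle and 34.0, 37.1 and 34.4 CPM with R1881 (log2FC −0.59 ± 0.12 SE, adjusted p = 0.0017). The LNCaP values were 30.02, 31.5 and 31.1 CPM with vehicle and 34.5, 35.3 and 37.4 CPM with R1881 (log2FC 0.19 ± 0.07 SE, adjusted p = 0.040). The LNCaP call for MCM10 was lost in 3 of 9 fits that left out a library, with no filter, with the replicate block and with the GC trend removed. The R1881 libraries of both lines again shared 1 range, from 34.0 to 37.4 CPM. Responses differed between lines by −0.80 ± 0.12 SE for CDC6 (adjusted p = 8.0e-05) and by −0.79 ± 0.13 SE for MCM10 (adjusted p = 0.00029).

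CDT1, the licensing factor that geminin inhibits, fell in C4-2 from 61.8, 49.8 and 51.3 CPM to 39.3, 40.4 and 34.4 CPM (log2FC −0.53 ± 0.11 SE, adjusted p = 0.0027). Its LNCaP libraries were at 21.2, 16.8 and 23.1 CPM with vehicle and 22.5, 17.2 and 19.8 CPM with R1881, which overlapped (adjusted p = 0.81). All C4-2 siScr libraries were above all LNCaP siScr libraries. The C4-2 call for CDT1 was lost with the GC trend removed, with or without the replicate block. The GINS subunits did not move alike. GINS3 rose in LNCaP from 7.79, 10.6 and 10.7 CPM to 16.2, 13.1 and 13.2 CPM (log2FC 0.52 ± 0.14 SE, adjusted p = 0.0059), and in C4-2 it was at 10.5 CPM in each vehicle library and at 11.2, 9.33 and 13.1 CPM with R1881 (adjusted p = 0.67). GINS2 also rose in LNCaP (log2FC 0.30 ± 0.11 SE, adjusted p = 0.029), and GINS1 and GINS4 fell in C4-2 (log2FC −0.33 and −0.36). The latter calls were lost in 7 and 4 of 9 fits that left out a library and with DESeq2, that of GINS1 also with RLE factors and that of GINS4 with no filter. The LNCaP call for GINS2 was lost in 3 of 9 fits that left out a library. For GINS3 10.9% and for GINS4 23.6% of exonic bases lie in other genes as well, and reads there may be missing from the counts.

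In the group of the clamp, its loader, the polymerases and lagging strand synthesis, R1881 lowered 6 of 12 genes in C4-2, and raised 6 and lowered 1 in LNCaP. RFC3, a subunit of the clamp loader, was at 91.7, 81.2 and 102 CPM with vehicle and 70.6, 69.2 and 71.7 CPM with R1881 in C4-2 (log2FC −0.37 ± 0.10 SE, adjusted p = 0.011). In LNCaP it was at 26.6, 32.7 and 34.3 CPM with vehicle and 38.3, 42.7 and 45.5 CPM with R1881 (log2FC 0.41 ± 0.09 SE, adjusted p = 0.0015). The line difference in RFC3 was 2.89-fold with vehicle and 1.67-fold with R1881, higher in C4-2 both times. RFC2, another loader subunit, moved from 85.5, 72.7 and 86.0 CPM to 63.2, 63.2 and 61.4 CPM in C4-2 (log2FC −0.37 ± 0.08 SE, adjusted p = 0.0031). In LNCaP its values of 35.5, 34.5 and 35.9 CPM became 40.5, 39.7 and 44.99 CPM (log2FC 0.23 ± 0.08 SE, adjusted p = 0.033). RFC4 showed the largest adjusted p of the 40 genes in C4-2, with 37.1, 36.9 and 46.6 CPM with vehicle against 43.2, 36.4 and 37.0 CPM with R1881 (log2FC −0.02 ± 0.11 SE, adjusted p = 0.90).

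FEN1, the flap endonuclease, was at 105, 88.6 and 91.8 CPM with vehicle and 80.8, 83.3 and 75.0 CPM with R1881 in C4-2 (log2FC −0.26 ± 0.09 SE, adjusted p = 0.029). It was at 51.7, 46.6 and 51.5 CPM with vehicle and 62.4, 64.7 and 69.3 CPM with R1881 in LNCaP (log2FC 0.38 ± 0.07 SE, adjusted p = 0.00025). The 2 groups did not overlap in either line, and the C4-2 call was lost in 4 of 9 fits that left out a library. POLE, the catalytic subunit of the leading strand polymerase, fell in both lines. In C4-2 it dropped from 95.9, 95.8 and 90.9 CPM to 47.9, 59.0 and 53.0 CPM (log2FC −0.83 ± 0.09 SE, adjusted p = 5.6e-06), and in LNCaP from 71.5, 68.2 and 68.1 CPM to 63.8, 54.8 and 59.6 CPM (log2FC −0.23 ± 0.07 SE, adjusted p = 0.012). The fall was larger in C4-2 (difference −0.61 ± 0.11 SE, adjusted p = 0.00041). LIG1, the replicative DNA ligase, stood at 25.4, 20.5 and 17.2 CPM with vehicle and 11.7, 15.5 and 12.5 CPM with R1881 in C4-2 (log2FC −0.71 ± 0.15 SE, adjusted p = 0.0023), and in LNCaP at 24.1, 20.7 and 25.2 CPM and 21.2, 19.8 and 20.7 CPM (adjusted p = 0.12).

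PCNA and POLA1 were called with R1881 in LNCaP and not in C4-2. PCNA was at 140, 143 and 157 CPM with vehicle and 168, 173 and 175 CPM with R1881 in LNCaP (log2FC 0.21 ± 0.06 SE, adjusted p = 0.0056), and at 160, 131 and 170 CPM and 146, 125 and 124 CPM in C4-2 (log2FC −0.22 ± 0.10 SE, adjusted p = 0.11). POLA1, the catalytic subunit of the primase polymerase, was at 40.7, 47.5 and 44.1 CPM with vehicle and 50.8, 52.9 and 55.9 CPM with R1881 in LNCaP (log2FC 0.25 ± 0.07 SE, adjusted p = 0.0090). In C4-2 it was at 49.2, 45.9 and 54.2 CPM with vehicle and 39.5, 42.8 and 40.3 CPM with R1881, apart from each other but short of the threshold (log2FC −0.27 ± 0.11 SE, adjusted p = 0.084). For both genes the responses of the 2 lines differed (−0.44 ± 0.11 SE, adjusted p = 0.012 for PCNA, and −0.53 ± 0.13 SE, adjusted p = 0.0073 for POLA1).

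The 4 genes of nucleotide supply split within LNCaP. RRM2, the S phase subunit of ribonucleotide reductase, had, beside GINS3, the largest rise of the module there, from 99.3, 93.8 and 102 CPM to 135, 144 and 148 CPM (log2FC 0.52 ± 0.06 SE, adjusted p = 3.7e-06). In C4-2 it was at 106, 86.6 and 111 CPM with vehicle and 89.9, 87.5 and 76.6 CPM with R1881, which overlapped (log2FC −0.25 ± 0.11 SE, adjusted p = 0.089). The responses differed by −0.78 ± 0.12 SE (adjusted p = 0.00013). TK1 instead had the largest fall in both lines. Its values went from 146, 121 and 154 CPM to 78.3, 75.9 and 71.5 CPM in C4-2 (log2FC −0.90 ± 0.11 SE, adjusted p = 1.8e-05) and from 73.9, 52.5 and 74.4 CPM to 52.0, 47.7 and 52.6 CPM in LNCaP (log2FC −0.41 ± 0.11 SE, adjusted p = 0.0052). In LNCaP 1 vehicle library lay within the range with R1881. The TK1 responses differed by −0.50 ± 0.17 SE, which did not pass the threshold (adjusted p = 0.051). RRM1, the large reductase subunit, rose in LNCaP (log2FC 0.25), and TYMS, thymidylate synthase, fell in C4-2 (log2FC −0.38), with 26.2% of TYMS exonic bases shared with other genes.

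Of the cyclin E and E2F genes, CCNE2, E2F1 and E2F2 fell in C4-2, CCNE2 fell in LNCaP, and none of the 5 rose in either line. E2F1, an activating factor, was at 49.5, 39.7 and 50.1 CPM with vehicle and 31.4, 29.6 and 25.5 CPM with R1881 in C4-2 (log2FC −0.68 ± 0.14 SE, adjusted p = 0.0016). In LNCaP it was at 26.6, 19.6 and 28.3 CPM with vehicle and 29.4, 25.0 and 29.02 CPM with R1881, which overlapped (log2FC 0.16 ± 0.12 SE, adjusted p = 0.27). The difference between these responses, −0.85 ± 0.20 SE, was the largest of the module (adjusted p = 0.0051). E2F2, its close relative, went from 17.8, 16.2 and 18.6 CPM to 11.4, 10.4 and 10.0 CPM in C4-2 (log2FC −0.71 ± 0.15 SE, adjusted p = 0.0017) and was at 6.21, 7.56 and 7.53 CPM and 8.59, 6.30 and 8.56 CPM in LNCaP (adjusted p = 0.54). CCNE2, cyclin E2, was at 19.4, 15.2 and 14.3 CPM with vehicle and 12.2, 10.1 and 11.6 CPM with R1881 in C4-2 (log2FC −0.56 ± 0.16 SE, adjusted p = 0.014), and at 16.6, 20.9 and 19.8 CPM and 15.9, 16.3 and 14.9 CPM in LNCaP (log2FC −0.31 ± 0.10 SE, adjusted p = 0.014). The CCNE2 calls were lost in 2 of 9 fits that left out a library in C4-2 and in 3 of 9 in LNCaP. The LNCaP call was also lost with no filter and with DESeq2. INTS8 and another gene overlap 37.1% of the exonic bases of CCNE2, and reads there may be missing from its counts. CCNE1, cyclin E1, was called in neither line (log2FC 0.10 in C4-2 and 0.03 in LNCaP).

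All 3 genes of chromatin assembly and maintenance methylation fell in C4-2, and UHRF1 alone fell in LNCaP. UHRF1, which brings DNMT1 to newly copied DNA, was at 28.1, 25.3 and 26.2 CPM with vehicle and 15.3, 14.6 and 13.5 CPM with R1881 in C4-2 (log2FC −0.88 ± 0.10 SE, adjusted p = 1.3e-05). In LNCaP it was at 22.6, 19.8 and 25.3 CPM with vehicle and 19.4, 13.8 and 19.6 CPM with R1881 (log2FC −0.36 ± 0.12 SE, adjusted p = 0.023), narrowly apart. CHAF1B, a subunit of the histone chaperone CAF-1, had the largest adjusted p of the module in LNCaP, with 38.2, 37.6 and 35.5 CPM against 37.0, 38.6 and 36.5 CPM (log2FC −0.00 ± 0.07 SE, adjusted p = 0.97). In C4-2 it fell from 52.7, 47.4 and 47.5 CPM to 33.9, 34.9 and 33.0 CPM (log2FC −0.54 ± 0.09 SE, adjusted p = 0.00030), and CHAF1A fell by 0.58 on the log2 scale. The R1881 response of all 3 differed between lines (differences of −0.48 to −0.55 in log2FC), and the UHRF1 call was lost in 9 of 18 fits that left out a library.

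**Figure D3:**
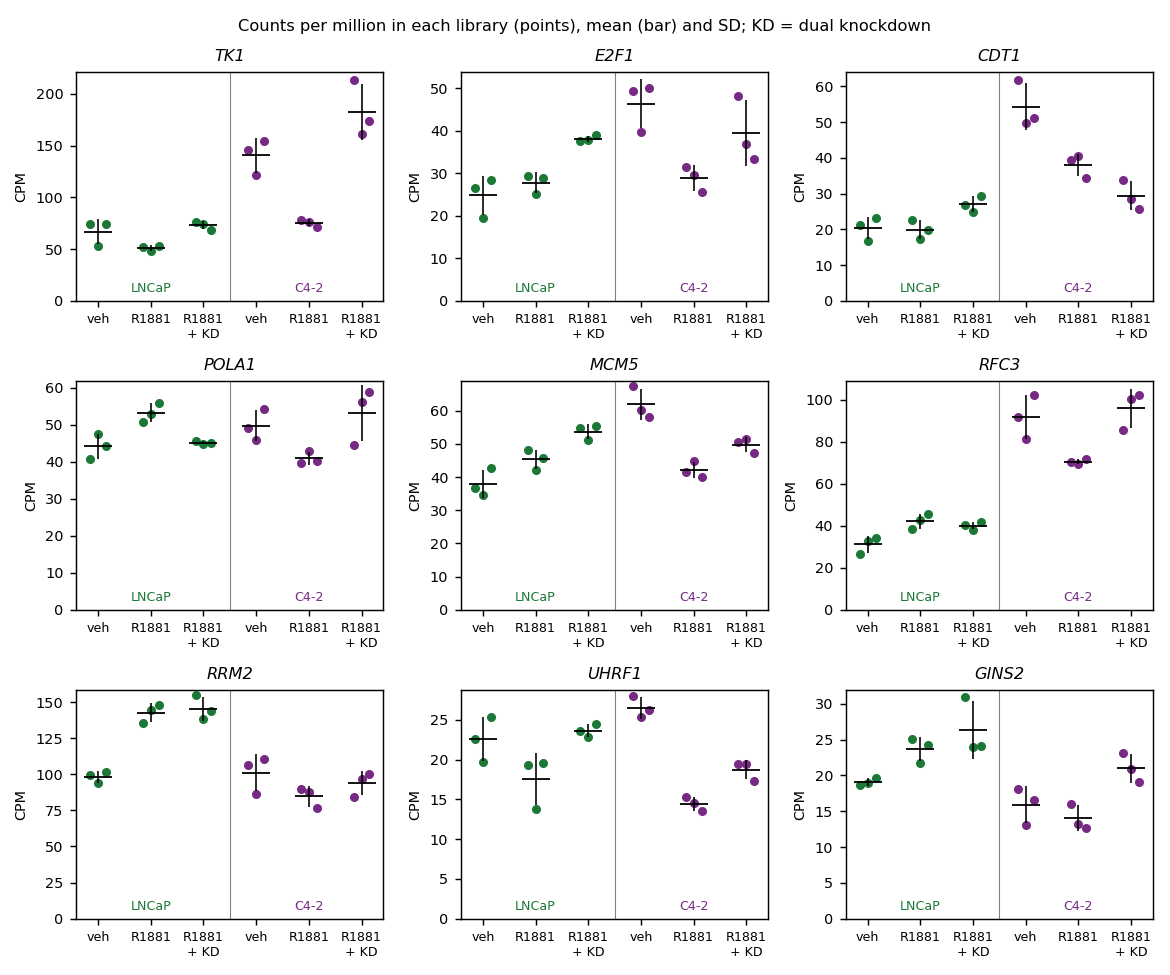
CPM in each library (points; green LNCaP, purple C4-2) of 9 genes in the 6 groups, with the mean (horizontal bar) and SD (vertical line), on axes that start at 0. TK1 falls from 121 to 154 CPM to 71.5 to 78.3 CPM with R1881 in C4-2 and stands at 161 to 213 CPM with dual knockdown.

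Dual knockdown was compared with siScr, both with R1881, so it shares its siScr R1881 libraries with the R1881 comparison of the same line. In C4-2 it raised 18 of the 40 genes and lowered 1, CDT1, against 12.7% higher and 10.8% lower (23.5% in all) of all genes tested. In LNCaP it raised 7 and lowered 1, POLA1, against 8.27% higher and 5.89% lower (14.2% in all) of all genes tested. The median log2FC of the 40 genes was 0.28 in C4-2 (all genes 0.01) and 0.07 in LNCaP (all genes 0.00), where it was 0.041 without dual knockdown replicate 1. TK1 in C4-2 was the only called change of the 40 genes with a log2FC of at least 1, a size passed by 3.94% of all genes in C4-2 and by 0.286% in LNCaP. The knockdown libraries lay above the siScr R1881 libraries for 24 genes and below them for 2 in C4-2 (21.2% and 19.2% of all genes tested), and for 11 and 2 genes in LNCaP (16% and 18.5% of all genes tested).

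These counts rest on few libraries. Without C4-2 siScr R1881 replicate 3 the C4-2 count was 9 genes (8 higher), and it was 11, 10 and 12 without siScr R1881 replicate 2 and dual knockdown replicates 2 and 3. In LNCaP 2 to 4 genes were called when siScr R1881 replicate 2 or 3 or any of the dual knockdown libraries was left out, and 4 genes once a trend with GC content was removed. The genes called in C4-2 in every one of the 9 fits that left out a library were TK1, GINS2, CDC45, GINS1, MCM10, FEN1, RFC3 and MCM7, and in LNCaP they were TK1 and FEN1.

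Origin genes provided 8 of the 18 rises in C4-2 and 3 of the 7 in LNCaP. Both counts are near their share of the module, 16 of the 40 genes. CDC45, which joins the helicase when origins fire, stood at 23.9, 24.2 and 20.9 CPM with siScr and 32.8, 34.4 and 35.3 CPM with dual knockdown in C4-2 (log2FC 0.57 ± 0.11 SE, adjusted p = 0.0023), above each of its vehicle libraries (28.7, 27.7 and 20.7 CPM). In LNCaP the values were 17.6, 17.5 and 17.8 CPM with siScr and 20.9, 18.5 and 18.6 CPM with dual knockdown (adjusted p = 0.28). GINS2 was at 16.1, 13.3 and 12.7 CPM with siScr and 23.1, 20.9 and 19.0 CPM with dual knockdown in C4-2 (log2FC 0.58 ± 0.13 SE, adjusted p = 0.0064), and the groups did not overlap. In LNCaP GINS2 was at 25.1, 21.7 and 24.2 CPM and 31.0, 23.9 and 24.2 CPM (adjusted p = 0.31).

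GINS1 was at 45.5, 39.2 and 39.8 CPM with siScr and 53.4, 62.2 and 63.9 CPM with dual knockdown in C4-2 (log2FC 0.52 ± 0.12 SE, adjusted p = 0.0047), and at 42.4, 51.9 and 50.2 CPM and 48.6, 50.4 and 51.4 CPM in LNCaP (adjusted p = 0.59). MCM10 reached 43.9, 52.8 and 53.5 CPM in C4-2 dual knockdown (log2FC 0.51 ± 0.12 SE, adjusted p = 0.0060) and 35.4, 33.7 and 36.8 CPM in LNCaP dual knockdown (log2FC 0.00 ± 0.07 SE, adjusted p = 0.99). CDC6 reached 60.7, 69.8 and 72.2 CPM in C4-2 (log2FC 0.34 ± 0.10 SE, adjusted p = 0.030), and was at 51.3, 48.2 and 54.4 CPM in LNCaP (adjusted p = 0.89). The C4-2 call for CDC6 was lost in 5 of 9 fits that left out a library. The knockdown responses of GINS1, MCM10, CDC6 and CDC45 differed between lines, by 0.47, 0.52, 0.38 and 0.44 in log2FC (adjusted p = 0.046, 0.013, 0.044 and 0.045). These calls were lost in 12, 1, 15 and 15 of 18 fits that left out a library, that of GINS1 also with the GC trend removed, that of CDC6 with RLE factors and with no filter, and that of CDC45 with no filter. Among the helicase subunits, MCM7 rose in both lines (log2FC 0.37 in C4-2 and 0.21 in LNCaP), and MCM5 rose in LNCaP, from 48.1, 42.3 and 45.7 CPM to 54.9, 51.1 and 55.3 CPM (log2FC 0.26 ± 0.08 SE, adjusted p = 0.048), with 50.6, 51.6 and 47.2 CPM in C4-2 dual knockdown (adjusted p = 0.061). The LNCaP calls of MCM7 and MCM5 were lost in 6 and 5 of 9 fits that left out a library. Both were also lost with RLE factors and with the GC trend removed.

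CDT1 was called in opposite directions. It stood at 26.9, 24.8 and 29.2 CPM in LNCaP dual knockdown, above its siScr R1881 libraries (22.5, 17.2 and 19.8 CPM, log2FC 0.46 ± 0.12 SE, adjusted p = 0.020). In C4-2 dual knockdown it stood at 33.8, 28.5 and 25.8 CPM, below its siScr R1881 libraries (39.3, 40.4 and 34.4 CPM, log2FC −0.38 ± 0.11 SE, adjusted p = 0.027). The groups did not overlap in either line, and the responses differed by −0.81 ± 0.18 SE (adjusted p = 0.0052), the largest difference of the module for the knockdown. Each single-line call was lost in 4 of 9 fits that left out a library, and the LNCaP call also with the GC trend removed. POLA1 showed the reverse. It was at 45.4, 44.7 and 45.1 CPM in LNCaP dual knockdown, below siScr R1881 (50.8, 52.9 and 55.9 CPM, log2FC −0.22 ± 0.07 SE, adjusted p = 0.048), and at 44.6, 56.1 and 58.8 CPM in C4-2 dual knockdown, above siScr R1881 (39.5, 42.8 and 40.3 CPM, log2FC 0.38 ± 0.11 SE, adjusted p = 0.024). The difference of 0.62 ± 0.13 SE passed the threshold (adjusted p = 0.0031). The LNCaP and C4-2 calls of POLA1 were lost in 6 and 5 of 9 fits that left out a library. Its LNCaP call was also lost with no filter, with the replicate block and with the GC trend removed. Of all genes tested in both lines, 0.139% were higher in LNCaP and lower in C4-2, and 0.209% the other way.

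In the clamp, polymerase and lagging strand group, 5 of 12 genes rose in C4-2 and none fell, with all 12 positive. RFC3 was at 85.4, 100 and 102 CPM in C4-2 dual knockdown (log2FC 0.44 ± 0.10 SE, adjusted p = 0.0047), and at 40.5, 38.2 and 41.6 CPM in LNCaP dual knockdown, overlapping siScr R1881 (adjusted p = 0.75), and the difference of 0.52 ± 0.13 SE was called (adjusted p = 0.016). FEN1 rose in both lines, to 113, 102 and 113 CPM in C4-2 (log2FC 0.45 ± 0.08 SE, adjusted p = 0.0015) and to 81.1, 78.2 and 79.5 CPM in LNCaP (log2FC 0.30 ± 0.07 SE, adjusted p = 0.0093), with no overlap with siScr R1881 in either. FADS2 and TMEM258 overlap 8.68% of the exonic bases of FEN1. PCNA had the largest adjusted p of the module in C4-2, with 132, 137 and 141 CPM with dual knockdown inside the range of siScr R1881 (log2FC 0.05 ± 0.10 SE, adjusted p = 0.77).

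TK1 rose most of the 40 genes in both lines. With dual knockdown it stood at 213, 161 and 174 CPM in C4-2 (log2FC 1.27 ± 0.11 SE, adjusted p = 2.9e-06) and at 76.4, 74.6 and 68.5 CPM in LNCaP (log2FC 0.54 ± 0.11 SE, adjusted p = 0.0055). The C4-2 values were above all C4-2 vehicle libraries (146, 121 and 154 CPM), the LNCaP values overlapped the LNCaP vehicle libraries, and the rise was larger in C4-2 (difference 0.75 ± 0.17 SE, adjusted p = 0.0050). TYMS rose in C4-2 (log2FC 0.34) and neither reductase subunit was called in either line.

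E2F1 rose in both lines, to 48.2, 36.9 and 33.3 CPM in C4-2 (log2FC 0.45 ± 0.13 SE, adjusted p = 0.026) and to 37.5, 37.8 and 39.0 CPM in LNCaP (log2FC 0.47 ± 0.11 SE, adjusted p = 0.013), and the difference of 0.00 ± 0.19 SE leaves room for unequal responses. The C4-2 call for E2F1 was lost in 3 of 9 fits that left out a library. The LNCaP call was lost in 1 of 9 such fits and with the GC trend removed. E2F2 reached 17.4, 17.5 and 12.0 CPM in C4-2 (log2FC 0.55 ± 0.14 SE, adjusted p = 0.011) and 9.63, 8.34 and 9.38 CPM in LNCaP (adjusted p = 0.32). CCNE2 had the largest adjusted p of the module in LNCaP, with 15.97, 15.2 and 15.2 CPM against 15.9, 16.3 and 14.9 CPM with siScr (log2FC 0.00 ± 0.10 SE, adjusted p = 1.0). UHRF1 was at 19.5, 19.4 and 17.3 CPM in C4-2 dual knockdown (log2FC 0.37 ± 0.10 SE, adjusted p = 0.016) and at 23.6, 22.8 and 24.5 CPM in LNCaP dual knockdown (log2FC 0.43 ± 0.12 SE, adjusted p = 0.027). In C4-2 UHRF1 stayed below every vehicle library, and in LNCaP it overlapped them, while neither CHAF1A nor CHAF1B was called.

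Taking the 3 groups of a line side by side, the C4-2 siScr R1881 mean was the lowest of the 3 for 34 of the 40 genes. The C4-2 dual knockdown mean lay between the other 2 means for 20 genes, above both for 15 and below both for 5. These orders of means were not counted over all genes, so whether they are unusual cannot be told. Comparing libraries that share no sample, C4-2 dual knockdown with R1881 against C4-2 siScr vehicle, all knockdown libraries lay below all vehicle libraries for 13 genes and above them for 5 (21.8% and 25.5% of all genes tested), the 5 being CDC45, GINS2, GINS3, RFC4 and TK1. In LNCaP the same comparison gave 21 genes above and 3 below (30.4% and 29.4% of all genes tested).

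The difference between lines in the knockdown response was called for 8 of the 40 genes, 7 higher in C4-2 and CDT1 lower, against 6.97% higher and 3.88% lower (10.9% in all) of all genes tested. None of the 8 reached a log2FC of 1, by edgeR, by DESeq2 or at an unadjusted p under 0.05, and 1.99% of all genes did. The median difference in log2FC was 0.19 over the 40 genes (all genes 0.01). DESeq2 called 11, and fits that left out a library gave 3 to 13, the lowest without C4-2 dual knockdown replicate 3 and the highest without C4-2 dual knockdown replicate 1.

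C4-2 was compared with LNCaP directly to place these changes. With vehicle, 26 of the 40 genes were higher in C4-2 and none lower, against 29.4% and 29.5% of all genes tested (58.9% in all), with a median log2FC of 0.31 (all genes −0.01). At an unadjusted p under 0.05 1 gene was lower, and DESeq2 called 1 lower. The largest were RFC3 (log2FC 1.53), CDT1 (1.43), E2F2 (1.28), RFC2 (1.20), TK1 (1.07) and FEN1 (0.94), and the first 5 of these passed a log2FC of 1, as did 24.2% of all genes. The C4-2 vehicle libraries lay above the LNCaP vehicle libraries for 25 genes and below them for 2 (30% and 32% of all genes tested). With R1881 13 genes were higher and 16 lower in C4-2, against 28.6% and 29.7% of all genes tested (58.3% in all), with a median log2FC of −0.09. CDT1 (0.93), RFC3 (0.74) and MCM7 (0.64) remained higher in log2FC, and GINS2 (−0.76), RRM2 (−0.75) and MCM4 (−0.65) were lower, none past a log2FC of 1, as 23.8% of all genes were. Libraries did not overlap for 12 genes higher and 16 lower in C4-2 (31.9% and 32.9% of all genes tested).

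Genes outside the module were read from 3 lists. For context, R1881 lowered 15.7% and raised 17.1% of all genes tested in C4-2, and raised 23.5% and lowered 23.2% in LNCaP. Dual knockdown raised 12.7% and lowered 10.8% in C4-2, and raised 8.27% and lowered 5.89% in LNCaP. Of 38 other replication genes, R1881 lowered 10 and raised 4 in C4-2 (median log2FC −0.09) and raised 16 and lowered 3 in LNCaP (median 0.15). Of the RB and E2F list, R1881 lowered 7 and raised 5 of 24 tested in C4-2 (median −0.08) and raised 8 and lowered 6 of 25 in LNCaP (median −0.05). Of 32 mitosis genes, R1881 lowered 19 and raised none in C4-2 (median −0.31) and raised 4 and lowered 6 in LNCaP (median 0.00). Dual knockdown raised 21 of the 32 mitosis genes in C4-2 and lowered none, with all 32 positive (median 0.38), and raised 3 and lowered 3 in LNCaP (median 0.04). In C4-2 the calls of the mitosis list therefore had the same direction as most calls of the module in each comparison.

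The members of these lists with the largest called knockdown changes were as follows. Among the other replication genes CHTF18, an alternative clamp loader subunit, rose in C4-2 (log2FC 0.79 ± 0.15 SE) and LNCaP (0.55 ± 0.13 SE), as did POLD1, the catalytic subunit of polymerase delta (0.64 ± 0.11 SE and 0.45 ± 0.13 SE). POLE3, a polymerase epsilon subunit, rose in C4-2 (0.53 ± 0.10 SE) and RECQL4, a helicase, in LNCaP (0.46 ± 0.10 SE). In all, 10 of the 38 rose and none fell in C4-2, and 6 rose and 4 fell in LNCaP. In the RB and E2F list, CDK2, the kinase partner of cyclin E, rose in C4-2 from 24.6, 26.8 and 22.6 CPM to 59.1, 67.2 and 60.1 CPM (log2FC 1.33 ± 0.10 SE, adjusted p = 1.5e-06), CDK6, a partner of D cyclins, rose (1.09 ± 0.15 SE), and E2F7, a repressor, rose (0.59 ± 0.12 SE).

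In LNCaP CDK4, another D cyclin partner (log2FC 0.41 ± 0.07 SE), and CDKN1A, a CDK inhibitor (0.24 ± 0.07 SE), rose, and E2F3, an activating E2F, fell by 0.26 on the log2 scale. Counts for this list were 6 higher and 3 lower of 24 tested in C4-2 and 3 and 3 of 25 in LNCaP. PLK1, ECT2 and BIRC5, which act in mitosis and cytokinesis, rose in C4-2 (0.76 ± 0.09, 0.71 ± 0.11 and 0.65 ± 0.10 SE). In LNCaP CDC20, an activator of the anaphase complex, rose (0.31 ± 0.10 SE), while ASPM and CENPE, of the spindle and kinetochore, fell by 0.30 and 0.29 on the log2 scale.

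**Figure D4:**
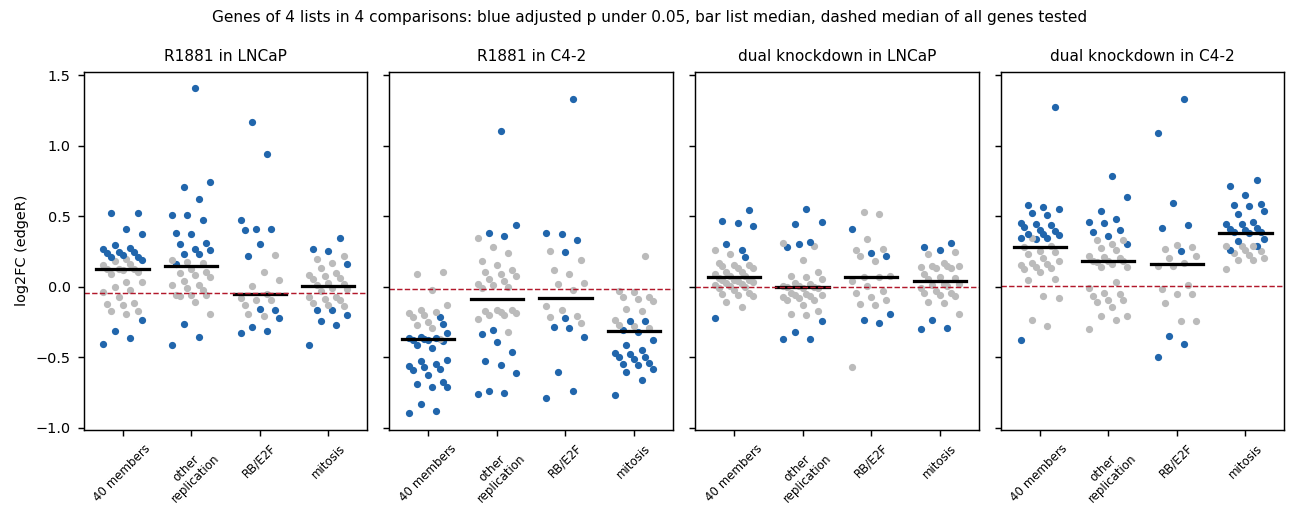
Each point is the log2FC of 1 gene of the module or of the 3 other lists, in 4 comparisons, blue where the adjusted p was under 0.05, with the list median (bar) and the median of all genes tested (dashed line). In C4-2 the bars of the 40 genes and of the mitosis genes lie at −0.37 and −0.31 with R1881 and at 0.28 and 0.38 with dual knockdown.

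Responses were set beside the E2F letters of the promoter windows, as a description. With R1881 in C4-2 the median log2FC was −0.38 for the 20 genes with the letters (15 called) and −0.26 for the 15 without them (8 called). With dual knockdown in C4-2 the medians were 0.34 (11 called) and 0.28 (7 called), and with R1881 in LNCaP 0.14 (9 called) and 0.13 (7 called). TK1, with the largest change in C4-2 under both treatments, is among the genes without the letters.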

How the data were processed

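RNA Seq libraries of LNCaP and C4-2 cells were analysed from the gene counts that the authors deposited, 1 table per library. Per the labels and the study's methods, reads were trimmed with Trim Galore, aligned with STAR to GRCh38 and counted with featureCounts (1.5.0-p1) against Ensembl 83. The deposited counts are raw and not normalised. Symbols were taken from a current list of gene names, and from GENCODE 29 for genes without a symbol there. Genes with enough counts by filterByExpr (minimum count 10, minimum total 15) were tested with edgeR (4.0.16, R 4.3.3) using TMM factors and the quasi-likelihood test, within each line over 9 libraries, and over 18 libraries for differences between lines, with Benjamini-Hochberg adjustment over all genes tested. CPM are TMM-scaled over the 18 libraries. DESeq2 (1.42.0) was an alternative, as were RLE factors, no filter, a replicate block, removal of a GC trend, fitting only the groups compared, and leaving out each library. The steps were tested on simulated data.

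The 40 genes and the comparison lists were chosen with earlier results of these data known. Values in every library are given, for each comparison within a line, for up to 6 called genes with the largest absolute log2FC and the gene with the largest adjusted p, and for genes called in opposite directions in the lines or called for the difference between lines (up to 6, largest first). From each comparison list up to 3 called genes with the largest absolute log2FC per knockdown comparison are named, with KDM1A and KDM7A and the 3 highest and 3 lowest members by FPKM. CDK2 values by library were added after its change was seen. The study's methods speak of biological replicates for RNA Seq of inhibitor-treated cells and give only the number for the siRNA libraries, so whether these came from separate cultures is not given in the sources used here, and p-values measure the spread between these libraries. Strand was not used here to separate overlapping genes. The shallow library limits precision for C4-2 vehicle.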

Additional observations from a re-analysis of the deposited data

Results flagged for a closer look

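The response of a gene to the same treatment was compared between the lines as an interaction term over 18 libraries (edgeR, quasi-likelihood test), and the following differences, C4-2 minus LNCaP in log2FC, passed an adjusted p of 0.05. For dual knockdown, CDT1 differed by −0.81, TK1 by 0.75, POLA1 by 0.62, MCM10 and RFC3 by 0.52 each, GINS1 by 0.47, CDC45 by 0.44 and CDC6 by 0.38. Those of GINS1, CDC45 and CDC6 were lost in 12, 15 and 15 of 18 fits that left out a library, those of RFC3 and MCM10 in 4 and 1, and those of CDT1, TK1 and POLA1 in 0. KDM1A and KDM7A were depleted further in C4-2, so line and depth of knockdown cannot be told apart for these 8 genes.

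For R1881 all 24 differences were negative. They were −0.85 for E2F1, −0.84 for E2F2, −0.82 for MCM5, −0.80 for CDC6, −0.79 for MCM10 and RFC3, −0.78 for RRM2, −0.65 for FEN1, and −0.61 for RFC2 and POLE. MCM3 differed by −0.57, ORC6 by −0.56, CHAF1B by −0.55, and GINS1, MCM2, POLA1 and UHRF1 by −0.53. MCM4, MCM6 and TYMS differed by −0.50, CHAF1A by −0.48, PCNA by −0.44, GINS4 by −0.41 and RRM1 by −0.39. Of these calls, GINS4 was lost in 14 of 18 fits that left out a library, UHRF1 in 9, RRM1 and TYMS in 7, GINS1 in 6 and ORC6 in 2, and the GINS4 call also with RLE factors, with no filter and with the replicate block. The C4-2 vehicle libraries enter each of these, among them the shallow one, without which 25 genes were called. Groups of 3 libraries were too small for a test of single outlying libraries.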

How the results depend on the processing

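For the dual knockdown in LNCaP, removing a GC trend gave 4 genes called and a median log2FC of 0.11, and the replicate block with the GC trend removed gave 3 and 0.11, against 8 and 0.07. The vehicle comparison of the lines had a median of 0.43 with the GC trend removed and 0.46 with the block as well, against 0.31. With a log2FC of at least 1 required, 1 gene remained for dual knockdown in C4-2, 5 for the lines with vehicle and 0 for every other comparison. Same-number correlations of deviations from the group means were −0.11 to 0.19 over 14949 genes. The highest was that of replicate 2 for R1881 in LNCaP (0.191, against at most −0.0243 for other numbers). Deviations from means of 3 libraries are not independent, so these correlations do not settle whether replicate numbers pair the libraries. With the replicate block 7, 17, 20 and 27 genes were called for dual knockdown in LNCaP, R1881 in LNCaP, dual knockdown in C4-2 and R1881 in C4-2, and 8 and 26 for the line differences in knockdown and R1881.

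Leaving out 1 library each time gave 2 to 8 genes for dual knockdown in LNCaP, 9 to 23 in C4-2 and 3 to 13 for their difference. The difference count was 4 or 5 without LNCaP vehicle replicate 1 or 3, LNCaP R1881 replicate 3, LNCaP knockdown replicate 2 or 3, C4-2 vehicle replicate 1, C4-2 R1881 replicate 2 or 3, or C4-2 knockdown replicate 2. Medians ranged from 0.041 to 0.094 for dual knockdown in LNCaP, from −0.46 to −0.34 for R1881 in C4-2, from −0.58 to −0.47 for its difference between lines, and from 0.30 to 0.40 for the lines with vehicle. Of 3359 values for single genes under alternatives, 3015 kept direction and call, 319 lost the call and 25 changed sign, all in genes that had not been called. CCNE2 with knockdown in LNCaP (0.00024) was −0.016 with RLE factors, −0.015 with DESeq2, −0.0011 with the replicate block, −0.00099 with only the 2 groups, and −0.038 to 0.018 without single libraries. CHAF1B with R1881 in LNCaP (−0.0047) was 0.015 with RLE factors, 0.029 with no filter and with DESeq2, 0.0070 with the GC trend removed, 0.0035 with the block as well, 0.0054 with only the 2 groups, and −0.029 to 0.026 without single libraries. RFC4 with R1881 in C4-2 (−0.02) was 0.0015 with no filter and −0.11 to 0.070 without single libraries. The cause of these changes was not tested.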
